A study of Arabidopsis thaliana with 11 samples.

Results

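Stigma and ovary were compared within the pistil of Arabidopsis thaliana, on 7 of the 11 arrays of a study whose title names pollination: the 3 arrays titled stigma and the 4 titled ovary. Titles set the groups, since the descriptive text of the stigma arrays speaks of ovary tissue. Flowers of the accession Landsberg erecta had been emasculated at stage 8, and their pistils were taken 1 day later and cut with scissors into a stigma and an ovary part. Both parts thus came from unpollinated pistils of the same genotype, and the labels do not say how much of the style went with the stigma. The other 4 arrays held seedlings kept on Murashige and Skoog plates until they were 10 days old, and were used for the spread between arrays, the pseudocount and the filter on dim probe sets. Nothing states whether arrays of 1 tissue came from separate plants, so the spread between arrays may be technical. The p-values here set each difference against that spread, pooled over stigma, ovary and seedling arrays.

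The stigma is the receiving surface of the pistil, where elongated papilla cells catch, hydrate and screen pollen. Below it lie the style and its transmitting tract, through which pollen tubes grow, and then the ovary, whose walls enclose the ovules. Nectaries, which secrete sugar, sit at the foot of the flower near the ovary base.

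Total RNA was hybridised to 1-colour ATH1 arrays, and each probe set gives 1 linear intensity, here called the signal, which the authors had scaled to a common mean on every array. Differences are stigma minus ovary of log2(signal + 17.3), where 17.3 is the 10th percentile of all values, so the differences of dim transcripts are understated. A probe set was tested if it passed a signal of 144.2 on at least 3 of all 11 arrays, and called if its limma adjusted p was under 0.05 with a difference of at least 2-fold. Where a tissue lay under 17.3 on average or on 2 arrays, the difference is printed as "at least" that size. A value after ± is the standard deviation over the 3 stigma or 4 ovary arrays. SE stands for the fitted standard error of a log2 difference, from the spread pooled over all 11 arrays, so seedling variation enters it. In whole tissue, fewer cells of a type and less RNA per cell cannot be told apart.

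Of 15524 tested probe sets, 2450 were called (15.8%), with 973 higher in stigma (6.27%) and 1477 lower (9.51%). Seedling arrays brought 1089 of the tested probe sets past the filter, which fewer than 3 pistil arrays passed, and 117 of these were called. Stigma and ovary arrays did not overlap for 2398 of the called probe sets, where 45.2% of all tested probe sets were without overlap. At least 4-fold, 290 were higher in stigma and 329 lower, and at least 8-fold, 88 were higher and 73 lower. Arrays of stigma had lower medians, and setting the medians of all arrays equal moved the median difference of tested probe sets from −0.07 to 0.09 and the share of calls that were higher in stigma from 39.7% to 53.0%. Gene lists were therefore read against a general shift of this size.

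**Figure D1:**
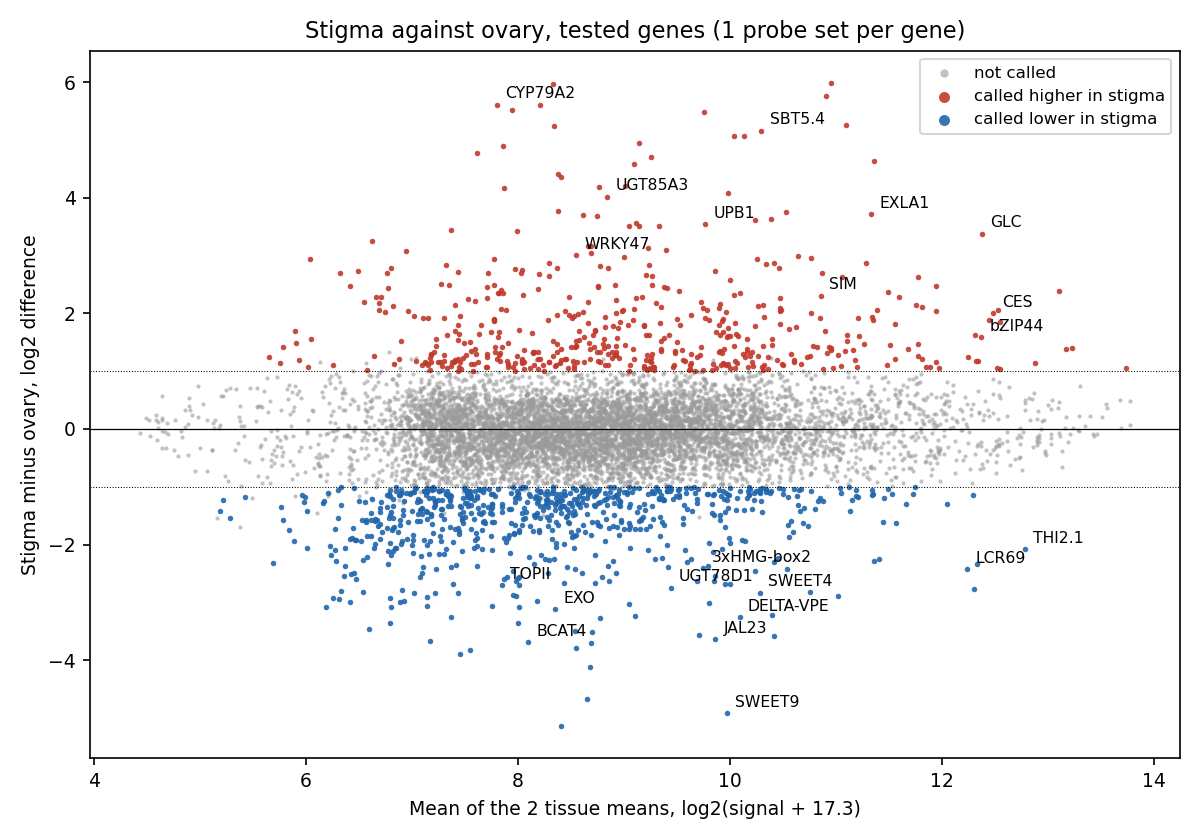
Difference between stigma and ovary (vertical axis, log2, stigma minus ovary) against the mean level of both tissues (horizontal axis, log2 of signal + 17.3) for the tested genes, with dotted lines at 2-fold. Genes called higher in stigma (red) reach 5.99 and genes called lower (blue) reach −5.14, and both kinds occur from dim to bright transcripts.

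Some arrays differed from others of their group. Among 123 probe sets at least 8-fold higher in stigma 2 and 3 than in ovary 3 and 4, the median signal of ovary 1 lay 5.39% of the way from the ovary to the stigma level, against 1.24% for ovary 2. Among 103 probe sets at least 8-fold higher in ovary 3 and 4, stigma 1 lay 9.15% of the way to the ovary level. Ovary 1 and ovary 2 reached 93.35% and 93.49% of that way, and stigma 1 reached 95.41% of the way to the stigma level in the first set. Both sets were chosen on stigma 2 and 3 and ovary 3 and 4. How much of these distances follows from that choice was not tested. Stigma 1, ovary 1 and ovary 2 were scanned in 1 period and the other 4 pistil arrays in a later one. Stigma 1 was also the only array on its fluidics station and was scanned on another day than ovary 1 and 2, so within the first period tissue, station and day cannot be told apart. The log2 ratio of 3′ to 5′ control probe sets, which rises as RNA is shortened, was 1.551 to 2.799 in stigma and 0.946 to 1.706 in ovary. With this ratio as a covariate, 2439 probe sets were called.

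Leaving out stigma 1 and ovary 1 gave 2380 called probe sets (15.3%), 1002 higher in stigma (6.45%) and 1378 lower (8.88%), of which 2153 had been called in the same direction with all arrays. This is 87.9% of the calls with all arrays and 90.5% of those without the pair, and 0 were called in opposite directions. Among the calls kept, 899 were higher in stigma and 1254 lower. All 2450 kept their sign, and the median difference of the called probe sets was larger without the pair, at 1.59 in place of 1.52 for those higher in stigma and −1.503 in place of −1.450 for those lower.

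**Figure D2:**
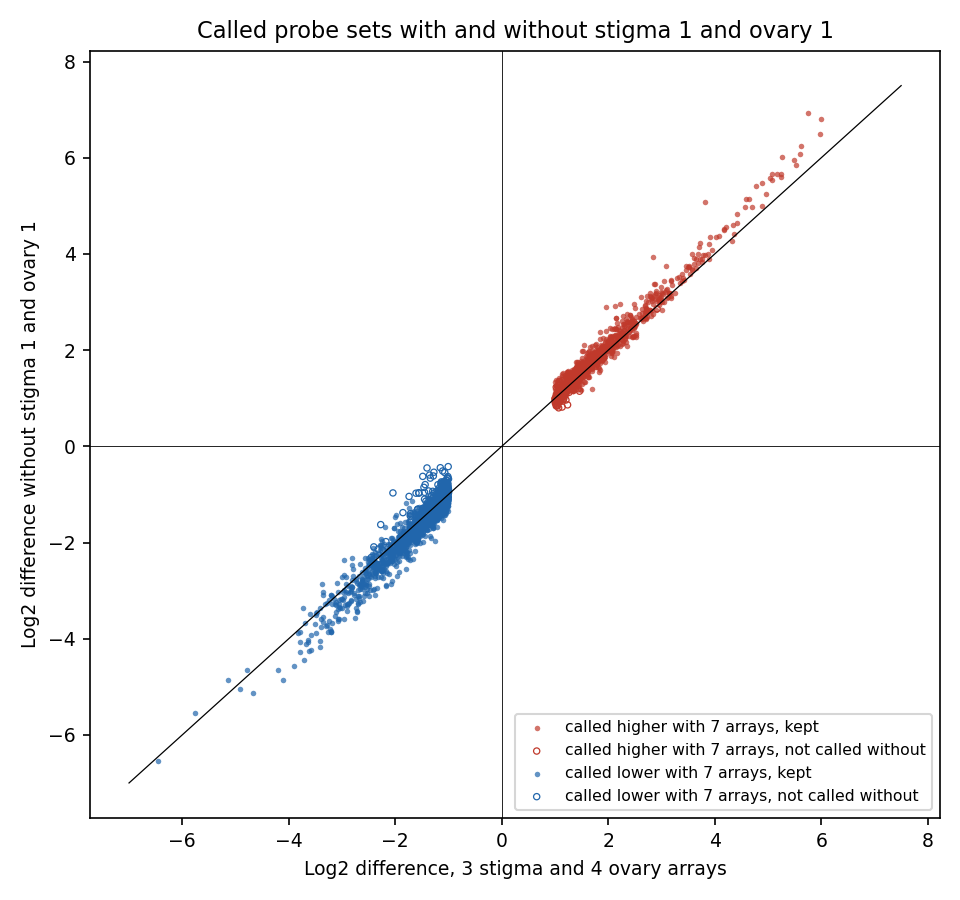
Log2 difference of each called probe set without stigma 1 and ovary 1 (vertical axis) against that with all 3 stigma and 4 ovary arrays (horizontal axis), with the line of equality. All 2450 points lie in the quadrants of equal sign, the largest positive differences lie above the line, and the open circles mark calls that were lost.

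The summed signal of 7 named genes of stigma and style was 2466.8 to 2999.0 in stigma and 1210.6 to 1380.0 in ovary, with 4 called higher and 0 lower. SHI, among these 7, went the other way without reaching 2-fold, with 178.5, 94.7 and 200.6 in stigma, against 236.1, 252.1, 262.2 and 255.8 in ovary. Of 3 tested genes of the ovary wall and ovule, 2 were called lower in stigma, INO and ALC. The summed signal of the 4 named ones was 1329.5 to 1673.1 in stigma and 2817.1 to 3509.7 in ovary. The 3 named genes of the embryo sac summed to 318.1 to 452.6 in stigma and 304.0 to 486.8 in ovary, and none was called. AGL61 and AGL80 averaged 235 and 80.5 in stigma and 198 and 55.8 in ovary, and EC1.2 57 in stigma and 125 in ovary, all with overlap. Pollen markers summed to 626.0 to 1001.2 in stigma and 548.8 to 742.0 in ovary, and no marker was at 0. Most of this sum was TUA1, the only tested one, at 567 ± 84.0 in stigma and 588 ± 63.6 in ovary and not called. Of the untested ones, AT59 had 82.8, 128.5 and 121.7 in stigma, against 42.5, 7.1, 56.4 and 40.1 in ovary, without overlap. ANX2 averaged 84.7 ± 60.5 in stigma and 21.3 ± 14.2 in ovary, and ACT12 38.2 ± 29.3 in stigma and 11.7 ± 8.73 in ovary, both with overlap. The part of these transcripts in other differences was not tested. The 3 named genes of leaf mesophyll summed to 14480.8 to 15551.7 in stigma and 13197.8 to 15508.2 in ovary, and none was called. STIG1 and SLR1, known stigma genes, could not be matched by symbol. Whether they are among the tested loci without a symbol was not checked, so their absence here is no result.

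The widest gaps belonged mostly to loci without a symbol. AT5G19880 had 19204.1, 14522.5 and 14090.3 on the stigma arrays, against 1802.0, 179.0, 84.1 and 88.1 on the ovary arrays. AT2G33850 had 17223.5, 12927.4 and 12529.7 in stigma, against 3960.3, 79.2, 89.3 and 94.6 in ovary. Ovary 1 stood high for both, and without stigma 1 and ovary 1 their differences were 6.81 and 6.93, against 5.99 and 5.76 with all arrays. Both loci carry no symbol in the annotation, like 10 of the 12 genes with the widest gap in favour of stigma; the 2 with a symbol were CYP79A2 and SBT5.4. In the other direction AT3G25810 had 14.5, 18.2 and 147.8 in stigma, against 1455.2, 4029.3, 1509.7 and 1767.5 in ovary (difference −5.14, SE 0.52), and AT1G56100 had 116.2, 31.1 and 60.5 in stigma, against 1698.7, 1067.6, 2868.6 and 3186.5 in ovary (difference −4.68, SE 0.41).

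Genes with a symbol numbered 1225 among those tested, of which 84 were called higher in stigma (6.86%) and 143 lower (11.7%). Lists of function and family, chosen mostly by symbol, held 794 of 8410 tested genes, and 58 lists had at least 5 tested genes. Of 13513 probe sets that name 1 gene, 11933 carry a locus identifier alone. The lists are therefore not full families, and their counts and gaps hold for the listed genes only. The accounts below follow these lists, from the cell surface inward, and each count is to be read against the 6.86% and 11.7% above. A gene can stand in more than 1 list, so counts of different lists are not independent.

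Cell wall loosening genes were split between the tissues. EXLA1, an expansin-like protein of the wall, had 10453.0, 8451.0 and 9265.0 in stigma, against 1189.8, 991.2, 429.6 and 448.9 in ovary (difference 3.72, SE 0.75). EXPA9, a wall-loosening expansin, had 147.3, 135.8 and 191.8 in stigma, against 475.4, 523.2, 520.4 and 641.6 in ovary (difference −1.67, SE 0.20). Neither gene overlapped between tissues. Of 14 tested expansin genes, 3 were higher in stigma (21.4%), EXLA1, EXPA8 and EXLA3, and 2 were lower, EXPA9 and EXPA20. EXPA8 averaged 1228 ± 252 in stigma and 342 ± 134 in ovary. EXLA3 had 287.2, 358.8 and 357.1 in stigma, against 108.4, 91.1, 80.4 and 99.9 in ovary. The call of EXPA20 (−1.02) ended in 10 of 23 alternatives, and that of EXLA1 ended within the first scan period and with the 3′ to 5′ ratio as a covariate (2.81).

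Enzymes that cut and rejoin xyloglucan, the XTH family, were likewise called in both directions. XTH33 had 1456.8, 1191.8 and 1054.4 in stigma, against 144.5, 126.3, 80.8 and 138.9 in ovary (difference 3.18, SE 0.48). XTH16 had 241.0, 100.3 and 140.0 in stigma, against 1290.1, 862.8, 1062.9 and 1039.6 in ovary (difference −2.67, SE 0.33). Arrays of the tissues were fully separate for both genes, which lie 5.84 apart on the log2 scale of differences. Of 6 tested members, 3 were higher in stigma, XTH33, XTH19 and XTH18, and 2 lower, XTH16 and XTH32. XTH32 averaged 189.5 ± 30.7 in stigma and 1165 ± 351 in ovary. XTH19 (1.52) and XTH18 (at least 1.42) lost their calls in 5 and 3 of 23 alternatives, among them the fit without stigma 3 for XTH18 (1.09).

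The cellulase-like gene GH9B13 had 906.3, 433.6 and 543.0 in stigma, against 3377.0, 3153.3, 2738.2 and 2850.2 in ovary (difference −2.30, SE 0.33), and was the only one of 9 tested endoglucanase genes to be called. CSLA03, a glucomannan synthase gene, averaged 716 ± 98.4 in stigma and 179.6 ± 65.4 in ovary (difference 1.96, SE 0.33). Among 16 tested glycan synthase genes 2 were higher in stigma (12.5%), CSLA03 and GUT2, a xylan synthesis gene, and 1 was lower (6.25%), ATCSLC08. Of all tested genes with a symbol, 6.86% were higher and 11.7% lower. The calls of GUT2 (1.08) and ATCSLC08 (−1.03) ended in 4 and 9 alternatives. Of 15 genes of the TBL family of wall acetyltransferases 2 were higher and 3 lower, all within 1.57 of 0 and with a median of 0.10, and 1 of the higher ones, TBL45, was not called without stigma 1 and ovary 1.

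Secreted proteases were also called in both directions. SBT5.4, a subtilisin-like serine protease, had 8568.7, 7084.3 and 6963.0 in stigma, against 696.9, 101.5, 145.6 and 123.5 in ovary (difference 5.16, SE 0.46). SBT1.3 of the same family had 1694.5, 821.7 and 1165.5 in stigma, against 5397.4, 6291.1, 5699.7 and 5787.1 in ovary (difference −2.28, SE 0.24). SBT4.13 averaged 14932 ± 1611 in stigma and 5729 ± 420.1 in ovary (difference 1.38, SE 0.14). Of 9 tested subtilase genes, 2 were higher in stigma and 2 lower, the fourth being ATSBT5.2 (−1.55, SE 0.31).

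Vacuolar processing enzymes, proteases that mature seed and vacuolar proteins, were split as well. BETA-VPE had 623.9, 764.4 and 696.7 in stigma, against 154.2, 251.8, 139.4 and 127.8 in ovary (difference 1.98, SE 0.25). DELTA-VPE, known from cell death in the seed coat, had 722.0, 229.2 and 223.2 in stigma, against 2839.6, 3612.6, 3744.9 and 3288.2 in ovary (difference −3.26, SE 0.31). Stigma 1 was the highest stigma array for DELTA-VPE, still far under every ovary array. These were 2 of 3 tested members.

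Of the serine carboxypeptidase-like genes, 6 of 17 tested were lower in stigma (35.3%) and 2 higher, with a median of −0.41. The widest gaps among the lower ones were those of scpl41, at 193 ± 205 in stigma and 796 ± 105 in ovary (difference −2.39, SE 0.45), and scpl50, at 207 ± 60.8 in stigma and 600.5 ± 53.4 in ovary (−1.49, SE 0.18). The higher ones were scpl46, at 686 ± 193 in stigma and 232 ± 130.0 in ovary (1.69, SE 0.52), and scpl40, at 630.2 ± 60.7 in stigma and 278 ± 81.7 in ovary (1.17, SE 0.21), and scpl46 was not called without stigma 1 and ovary 1. Stigma 1 had 429.4 for scpl41, against 94.5 and 56.0 on the other stigma arrays, and within the first scan period the difference was −0.82 and not called. With the 3′ to 5′ ratio as a covariate the counts were 0 higher and 7 lower. With medians set equal they were 2 higher and 4 lower, with a list median of −0.25.

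**Figure D3:**
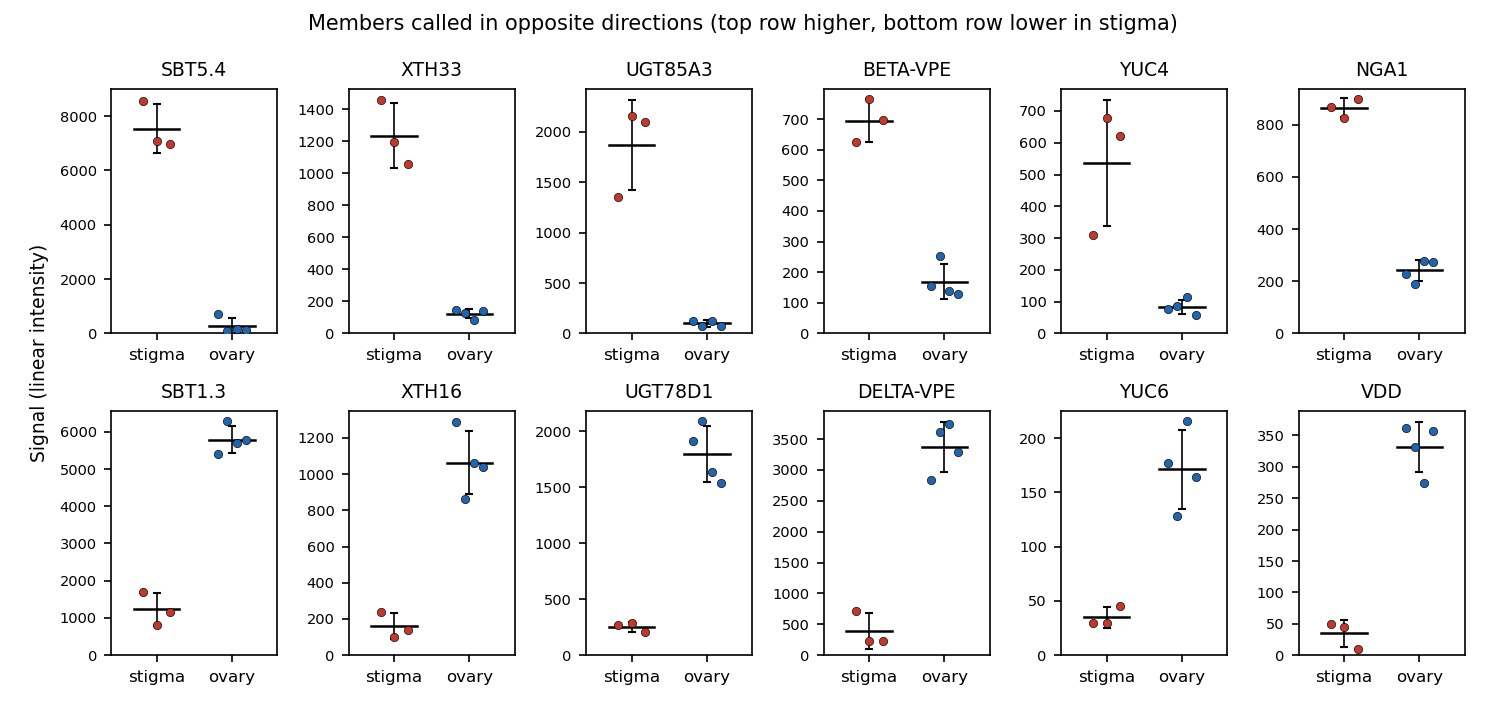
Signal (linear intensity, vertical axes starting at 0) of 6 genes called higher in stigma (top row) and 6 members of the same families called lower (bottom row), on the 3 stigma arrays (red, left) and the 4 ovary arrays (blue, right), with mean and standard deviation. Columns hold subtilases, XTH enzymes, UDP-glycosyltransferases, vacuolar processing enzymes, YUC auxin enzymes and B3 factors, and the arrays of the tissues do not overlap in any panel.

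More small secreted peptide genes were called lower in stigma (8) than higher (1). LCR69, a defensin-like peptide gene, had 4297.0, 1361.2 and 1513.0 in stigma, against 10272.3, 10063.9, 12002.7 and 12636.7 in ovary (difference −2.42, SE 0.30). LCR80 had 4.1 to 50.5 in stigma, against 198.2 to 461.0 in ovary, so it was lower in stigma by at least 3.36 on the log2 scale. RALFL18, a member of the RALF peptides that act through receptor kinases, had 47.3, 51.8 and 33.9 in stigma, against 260.6, 233.3, 279.9 and 243.1 in ovary (difference −2.15, SE 0.26). RALFL26 went the other way, with 204.9, 276.4 and 304.7 in stigma, against 54.8, 51.0, 73.8 and 46.8 in ovary (difference 1.91, SE 0.29). No array of either tissue overlapped with the other for these 4 genes.

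In that list of 22 tested peptide genes, 8 were lower in stigma (36.4%) and RALFL26 alone was higher. The other 5 lower ones, named after their values were seen, were THI2.1, LCR68, CLE41, CLE27 and STOMAGEN. CLE41, whose peptide keeps vascular stem cells dividing, averaged 319.6 ± 116 in stigma and 982 ± 225 in ovary, and STOMAGEN, which promotes stomata, 279.9 ± 86.9 in stigma and 597 ± 64.1 in ovary. THI2.1, a jasmonate-induced thionin, had 9094.1, 2155.0 and 2020.0 in stigma, against 12026.4, 16335.3, 14167.1 and 15730.4 in ovary. Stigma 1 thus lay between the other stigma arrays and the ovary arrays for THI2.1. Within the first scan period the difference of LCR69 was −1.24, against −2.42 over all arrays. With medians set equal, 2 peptide genes were higher and 7 lower, and the list median moved from −0.485 to −0.074. Without stigma 1 and ovary 1, 2 were higher and 9 lower.

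Genes of specialised metabolism gave some of the widest gaps. CYP79A2, which turns phenylalanine into phenylacetaldoxime, had 1235.2, 1545.2 and 1938.9 in stigma, against 66.2, 8.6, 4.5 and 4.7 in ovary, a difference of at least 5.62 (SE 0.43). CYP78A9, known to enlarge fruits when overexpressed, had 18.9, 15.7 and 21.7 in stigma, against 202.6, 248.7, 141.8 and 172.7 in ovary (difference −2.51, SE 0.28). The cytochrome P450 list had 11 tested genes, with 2 higher and 2 lower. The second lower call, CYP71B22 (−1.39, SE 0.45), ended in 12 of 23 alternatives, among them the fit without stigma 1 and ovary 1. UGT85A3, a UDP-glycosyltransferase, had 1355.2, 2155.3 and 2095.1 in stigma, against 127.1, 68.8, 127.5 and 76.0 in ovary (difference 4.02, SE 0.24). It was the only 1 of 28 tested UDP-glycosyltransferase genes called higher, where 6 were called lower (21.4%). Among the lower ones, UGT78D1 is counted again in the flavonoid list below.

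Flavonoid and anthocyanin genes were lower in stigma in 6 of 7 tested cases. DFR, which commits flavonoids to anthocyanins and tannins, had 381.1, 417.7 and 305.5 in stigma, against 2277.7, 2032.8, 2635.3 and 2000.9 in ovary (difference −2.55, SE 0.37). UGT78D1, a flavonol rhamnosyltransferase, had 271.7, 283.9 and 204.0 in stigma, against 1913.1, 2088.6, 1634.8 and 1540.4 in ovary (difference −2.75, SE 0.37). BAN, an enzyme of seed coat tannins, averaged 17.0 ± 6.28 in stigma and 187 ± 48.0 in ovary, so it was lower by at least 2.55 on the log2 scale. Of 7 tested genes of this pathway 6 were lower, with a median of −2.55; the others called were UF3GT (−2.63, SE 0.45), AT5MAT (−1.79, SE 0.21) and UGT78D2 (−1.04, SE 0.34). This list was drawn up after its values had been seen, so its count is a description, and DFR, AT5MAT and UGT78D2 were named after their values were seen. UGT78D2 was not called without stigma 1 and ovary 1.

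Called members of the glucosinolate list and of the jasmonate and salicylate list were lower in stigma too. The glucosinolate list did not hold CYP79A2, which was higher in stigma, and is no full account of that pathway. BCAT4, which starts chain elongation of methionine for glucosinolates, had 30.0, 58.5 and 106.1 in stigma, against 470.6, 1396.3, 1238.5 and 1050.2 in ovary (difference −3.69, SE 0.63). UGT74B1, the glucosyltransferase of glucosinolate synthesis, averaged 198 ± 32.5 in stigma and 728 ± 112 in ovary, and AOP3 179 ± 26.3 in stigma and 662 ± 122 in ovary. These were the 3 called of 6 tested glucosinolate genes, a list also drawn up after its values had been seen, and the call of AOP3 ended in 4 alternatives, among them without stigma 1 and ovary 1.

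JMT and BSMT1 encode the methyltransferases that make methyl jasmonate and methyl salicylate. JMT had 558.8, 540.7 and 417.9 in stigma, against 1423.9, 3647.6, 2019.2 and 1552.0 in ovary (difference −1.97, SE 0.27). BSMT1 had 1021.9, 817.1 and 550.4 in stigma, against 2109.0, 4759.2, 2255.6 and 2998.2 in ovary (difference −1.87, SE 0.36). Ovary 2 was the highest array for both, and no stigma array reached an ovary array. With JRG21, a jasmonate-regulated gene, and MYC4 and MYC3, transcription factors of the jasmonate response, 5 of 7 tested genes were lower (71.4%) and 0 higher, with a median of −1.75. Leaving out stigma 1 and ovary 1 kept 4 of the 5, without MYC3.

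Sugar transporters were lower in stigma or not called. SWEET9, the sucrose exporter of nectaries, had 183.1, 143.4 and 173.0 in stigma, against 4739.5, 7490.8, 4565.2 and 5596.4 in ovary (difference −4.91, SE 0.24). SWEET4 had 448.3, 442.2 and 459.8 in stigma, against 2504.9, 3491.4, 3859.9 and 3553.5 in ovary (difference −2.83, SE 0.21). SWEET3 averaged 187 ± 57.7 in stigma and 696 ± 96.2 in ovary. Of 18 tested transporters 6 were lower (33.3%) and 0 higher, and the same count was found without stigma 1 and ovary 1, with medians set equal and with the 3′ to 5′ ratio as a covariate. The other 3, named after their values were seen, were SWEET8, SWEET17 and SWEET11, at 111 ± 13.2, 293 ± 41.5 and 269.7 ± 69.5 in stigma and 440 ± 50.8, 736 ± 108 and 723 ± 387 in ovary.

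Primary metabolism was more even. MGL, methionine gamma-lyase, had 3497.4, 3214.2 and 2656.0 in stigma, against 579.6, 780.8, 606.4 and 574.6 in ovary (difference 2.27, SE 0.47). Its call ended with the 3′ to 5′ ratio as a covariate (1.56) and within the first scan period (2.35), where 1 stigma array met 2 ovary arrays. None of 12 tested genes of the citrate cycle was called, nor any of 21 nuclear photosynthesis genes (median −0.01), and SDH1-1, a succinate dehydrogenase subunit, had the largest difference of the cycle at 0.78 (SE 0.21). Of 69 plastid-encoded genes 1 was higher, ndhF, and 1 lower, rpl22, and neither was called without stigma 1 and ovary 1. Arrays for ndhF overlapped, and with the 3′ to 5′ ratio as a covariate its difference was 0.39, against 1.46.

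Glutathione transferase genes spread over both tissues. GSTU18 averaged 1798 ± 336 in stigma and 573 ± 78.4 in ovary (difference 1.61, SE 0.19). GSTU20 averaged 302 ± 72.8 in stigma and 2548 ± 525 in ovary (difference −3.01, SE 0.51). Of 11 tested members 2 were higher and 3 lower, and the call of the second higher one, GSTU28 (at least 1.07), ended in 11 of 23 alternatives, among them the fit without stigma 1 and ovary 1. ALDH2C4, an aldehyde dehydrogenase of phenolic metabolism, averaged 241 ± 30.9 in stigma and 831 ± 134 in ovary (difference −1.71, SE 0.15). GPDHC1, a glycerol-3-phosphate dehydrogenase, averaged 5299 ± 399.9 in stigma and 2016 ± 223 in ovary (difference 1.39, SE 0.13). Of 13 tested lipid and surface genes, GPDHC1 alone was called higher and WSD1 alone lower (7.69% each). WSD1 averaged 1623 ± 296 in stigma and 3340.4 ± 132 in ovary (difference −1.05, SE 0.19), and its call ended in 4 of 23 alternatives.

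Auxin genes were called in both directions. YUC4, a flavin monooxygenase of auxin synthesis, had 311.0, 678.6 and 622.2 in stigma, against 76.6, 85.5, 113.3 and 59.1 in ovary (difference 2.41, SE 0.29). YUC6, which catalyses the same step, had 29.3, 29.3 and 45.5 in stigma, against 177.0, 128.0, 215.6 and 163.8 in ovary (difference −1.85, SE 0.36). Both sets of arrays were separate. Conjugating enzymes were likewise found on both sides, where GH3.1 had 176.6, 535.4 and 416.3 in stigma, against 49.7, 14.8, 26.6 and 16.8 in ovary (at least 3.09 higher). GH3.17 averaged 102 ± 12.5 in stigma and 280.5 ± 27.9 in ovary (−1.32, SE 0.27).

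WAG2, a protein kinase that acts on auxin transporters, had 543.7, 630.0 and 605.5 in stigma, against 62.0, 44.9, 65.4 and 77.5 in ovary (difference 2.95, SE 0.22). IAGLU, which glucosylates auxin, averaged 201 ± 14.7 in stigma and 544 ± 149.8 in ovary. In the auxin list of 13 tested genes 4 were higher and 4 lower (30.8% each), and all 8 kept their calls without stigma 1 and ovary 1. Within the first scan period GH3.1 (2.06) and YUC6 (−1.85) were not called. None of 6 tested genes of gibberellin reception was called, although all 6 had negative differences, the largest being that of the receptor gene GID1B (−0.88, SE 0.24).

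Regulators of pistil pattern were found on both sides. NGA1, a B3 transcription factor needed for the style and stigma, had 868.6, 826.7 and 899.3 in stigma, against 228.8, 188.1, 276.6 and 272.2 in ovary (difference 1.78, SE 0.26). VDD, a B3 factor that acts in the ovule, had 49.2, 45.4 and 9.8 in stigma, against 362.4, 331.6, 274.6 and 356.5 in ovary (difference −2.84, SE 0.39). INO, a YABBY factor of the outer integument, had 201.0, 247.4 and 136.9 in stigma, against 515.9, 589.6, 604.0 and 605.1 in ovary (difference −1.52, SE 0.27). No array overlapped for any of them.

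Within the B3 and YABBY list of 9 tested genes, 3 were higher in stigma, all NGATHA genes, and 5 were lower (55.6%), with a median of −1.37. The other lower members were YAB3 (−1.46, SE 0.27), YAB5 (−1.37, SE 0.23) and AT2G35310, annotated as REM23 (−1.58, SE 0.24). NGA2 was the only member not called, at 512 ± 26.0 in stigma and 359 ± 40.3 in ovary. All 8 calls were made again without stigma 1 and ovary 1. Within the first scan period NGA3, NGA4, INO, YAB3 and YAB5 kept their sign and were not called.

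Basic helix-loop-helix factors included the stigma-high UPB1, known from roots as a regulator of peroxidase genes, with 3659.6, 2688.7 and 2594.2 in stigma, against 361.6, 296.4, 162.1 and 180.1 in ovary (difference 3.54, SE 0.37). CES, also called HAF, which acts in the transmitting tract, averaged 11661 ± 2637 in stigma and 2896 ± 591 in ovary, and was high in both tissues next to 27.2 in seedlings. SPCH, which starts the stomatal lineage, had 37.3, 33.3 and 28.2 in stigma, against 221.2, 167.9, 102.8 and 186.6 in ovary (difference −1.86, SE 0.28). Of 19 tested members 2 were higher and 4 lower, the rest of these being MYC3, MYC4 and ALC, a regulator of fruit opening. STOMAGEN and SPCH were thus both lower in stigma.

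WRKY factors, which take part in defence and senescence, gave 2 stigma-high genes of 5 tested. WRKY47 had 951.9, 1064.0 and 1122.2 in stigma, against 150.6, 66.7, 132.7 and 125.9 in ovary (difference 3.01, SE 0.21). WRKY6 had 838.1, 770.7 and 596.8 in stigma, against 119.6, 102.4, 88.8 and 85.3 in ovary (difference 2.69, SE 0.22). The other 3 lay between −0.38 and −0.11. Of 16 tested bZIP genes 4 were higher (25%) and 0 lower, with a median of 0.47. bZIP44 averaged 9231 ± 1359 in stigma and 3056 ± 389 in ovary (difference 1.59, SE 0.14), and BZIP17, a factor of the endoplasmic reticulum stress response named after its values were seen, 1339.6 ± 152 in stigma and 604 ± 85.2 in ovary. EEL (1.28, SE 0.20) and bZIP58 (1.13, SE 0.29) were the remaining 2, and bZIP58 was not called without stigma 1 and ovary 1.

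Genes of the immune and peptide response differed by receptor. BIK1, a cytoplasmic kinase that relays signals of immune receptors, had 1834.2, 1778.2 and 1408.1 in stigma, against 366.5, 326.0, 307.6 and 230.5 in ovary (difference 2.39, SE 0.17). EFR, the receptor of bacterial elongation factor, averaged 672 ± 149 in stigma and 254 ± 23.1 in ovary (difference 1.32, SE 0.22). PSY1R, the receptor kinase of a tyrosine-sulfated growth peptide, averaged 17.6 ± 8.97 in stigma and 69.6 ± 6.15 in ovary (difference −1.35, SE 0.24). Of 14 tested genes 3 were higher and 2 lower, with BRL1, a relative of the brassinosteroid receptor, as the third high one (1.17, SE 0.22) and APK1A as the second low one (−1.29, SE 0.21). Glutamate receptor channels numbered 5 tested, with 2 higher, GLR3.5 (1.24, SE 0.24) and ATGLR1.2 (1.16, SE 0.26), and 0 lower.

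Among cell division genes, 10 were called lower in stigma and 2 higher. TOPII, DNA topoisomerase of replication and chromosome condensation, had 126.2, 81.2 and 34.4 in stigma, against 634.9, 600.8, 416.8 and 666.9 in ovary (difference −2.71, SE 0.30). KINESIN-12B, a motor of the dividing cell plate, had 54.6, 41.1 and 42.5 in stigma, against 211.0, 192.3, 272.3 and 144.2 in ovary (difference −1.79, SE 0.30). BUB3.1, a spindle checkpoint protein, had 196.3, 279.0 and 206.8 in stigma, against 762.8, 749.5, 690.5 and 803.5 in ovary (difference −1.67, SE 0.20). The lowest ovary array was above the highest stigma array for all 3.

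Of 22 tested genes of the cell cycle and DNA replication, 10 were lower in stigma (45.5%) and 2 higher, with a median of −0.96, and 19 of the 22 differences were negative. All 12 calls were made again without stigma 1 and ovary 1, and the median ran from −1.06 to −0.72 over all alternatives. Lower members named after their values were seen included the replication genes ICU2, a DNA polymerase alpha subunit (−1.62, SE 0.19), PRL, the helicase subunit MCM7 (−1.56, SE 0.24), PSF2 (−1.46, SE 0.18) and POLA3 (−1.05, SE 0.22). They also included BUBR1 of the spindle checkpoint (−1.60, SE 0.36) and the Aurora kinases AUR2 (−1.19, SE 0.21) and AUR1 (−1.17, SE 0.21).

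SIM was the main exception. This inhibitor of cyclin-dependent kinases, known for switching leaf hairs from division to repeated DNA replication, had 4486.9, 3977.5 and 3914.7 in stigma, against 934.6, 878.5, 654.0 and 830.0 in ovary (difference 2.31, SE 0.22). CDC27a, a subunit of the complex that degrades mitotic cyclins, averaged 384 ± 72.4 in stigma and 161 ± 42.5 in ovary (difference 1.18, SE 0.24), and fell just short of 2-fold within the second scan period (0.99).

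**Figure D4:**
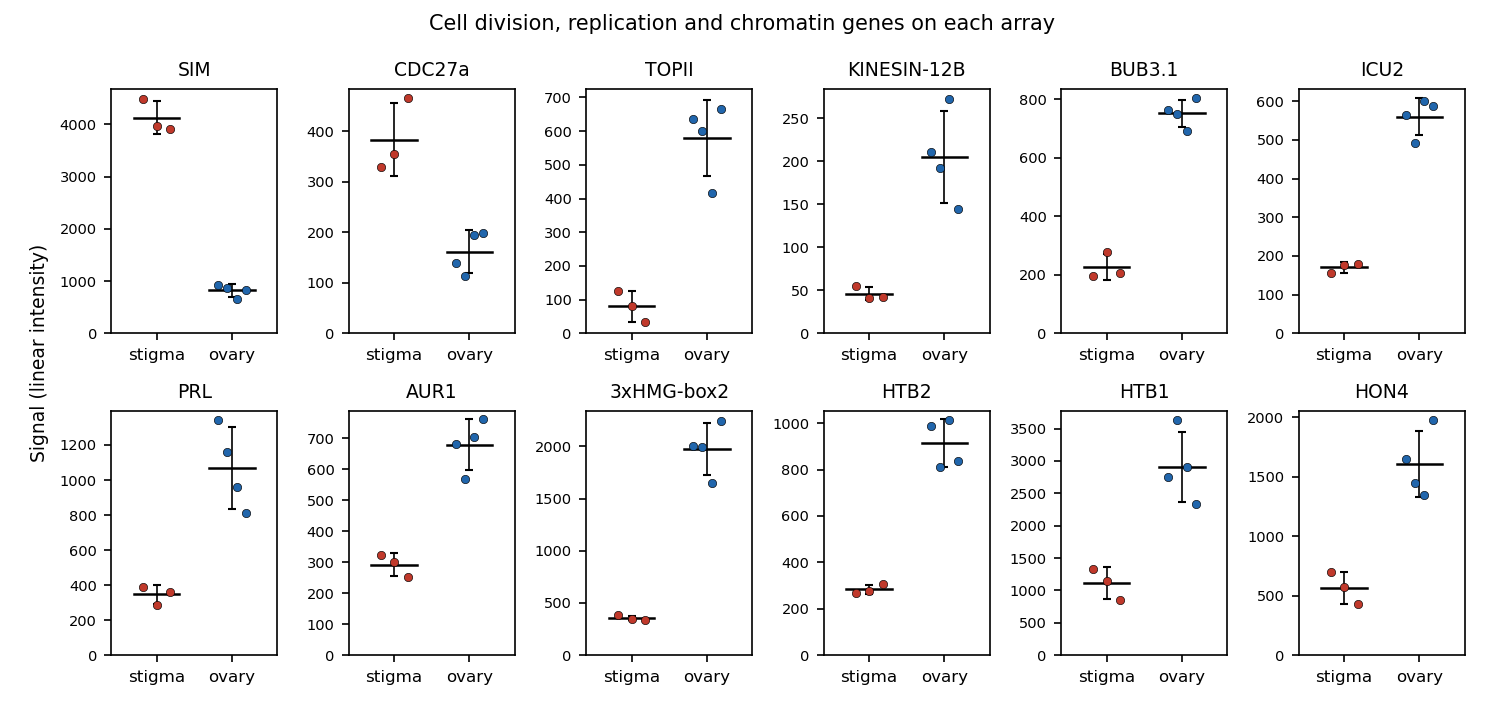
Signal (linear intensity, vertical axes starting at 0) of 12 genes of cell division, replication and chromatin on the 3 stigma arrays (red, left) and the 4 ovary arrays (blue, right), with mean and standard deviation. SIM and CDC27a were higher in stigma and the other 10 genes lower, and no panel shows overlap between the tissues.

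Histone genes and their partners were called only as lower in stigma, in 6 of 10 tested cases. 3xHMG-box2, a chromosome-binding protein of dividing cells, had 381.4, 348.5 and 338.8 in stigma, against 2005.5, 1998.0, 1649.2 and 2246.7 in ovary (difference −2.41, SE 0.21). HTB2, a histone H2B gene, had 269.2, 277.4 and 306.4 in stigma, against 989.3, 813.3, 1013.7 and 837.3 in ovary (difference −1.62, SE 0.21). HON4, a linker histone-like gene, averaged 567 ± 135 in stigma and 1605 ± 278 in ovary (difference −1.48, SE 0.29). Of 10 tested genes 6 were lower (60%), 0 higher and all 10 differences negative, with a median of −1.17. The further 3, named after their values were seen, were HTB1 (−1.38, SE 0.23), HTB4 (−1.25, SE 0.13) and the histone chaperone ASF1B (−1.10, SE 0.24), and ASF1B was not called without stigma 1 and ovary 1.

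Ubiquitin-conjugating enzymes, the E2 enzymes that pass ubiquitin to its targets, were found on both sides. UBC20 had 324.4, 302.8 and 296.0 in stigma, against 1165.4, 999.2, 1044.7 and 1056.5 in ovary (difference −1.74, SE 0.17), and UBC19 averaged 589 ± 99.1 in stigma and 1292 ± 139 in ovary (−1.12, SE 0.15, named after its values were seen). UBC30 of the same list had 3846.3, 3616.2 and 3003.4 in stigma, against 978.6, 965.9, 738.1 and 759.8 in ovary (difference 2.002, SE 0.15). Of 18 tested E2 and U-box genes 1 was higher and 4 lower. Chromatin remodelling genes gave 2 lower of 18 tested (11.1%), near the 11.7% of all tested genes with a symbol. Of these, chr31 averaged 477 ± 85.0 in stigma, 1316 ± 286 in ovary and 24.3 in seedlings (difference −1.42, SE 0.27).

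Cytoskeleton genes were called in both directions. TUB7, a beta-tubulin, had 1265.6, 901.6 and 798.6 in stigma, against 2756.9, 2745.9, 2444.9 and 2589.3 in ovary (difference −1.42, SE 0.16). TUB6, also a beta-tubulin, had 3530.3, 3500.4 and 3155.4 in stigma, against 1807.1, 1673.9, 1464.9 and 1479.9 in ovary (difference 1.08, SE 0.14), and fell to 0.90 with the 3′ to 5′ ratio as a covariate. Tubulin and microtubule genes gave 1 higher (5.56%) and 3 lower (16.7%) of 18 tested, near the 6.86% and 11.7% of all tested genes with a symbol. KINESIN-12B, counted among the division genes above, was 1 of these 3 lower genes. Of 23 tested genes of the IQD and TRM families, which bind microtubules, 5 were lower (21.7%) and 1 higher, with TRM24 at 13.7 ± 15.5 in stigma and 203 ± 8.22 in ovary (at least 2.94 lower) and IQD18 at 242 ± 78.1 in stigma and 49.2 ± 31.3 in ovary (2.04 higher, SE 0.39).

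Tetraspanins, membrane proteins of the cell surface, gave 2 higher and 0 lower of 8 tested, and the other 6 differences were negative. TET8, a tetraspanin, had 8359.3, 7421.9 and 6577.0 in stigma, against 1846.7, 1476.7, 1904.1 and 1640.4 in ovary (difference 2.11, SE 0.27). Cold and dehydration proteins gave 2 higher and 1 lower of 9 tested. Redox and thiol enzymes gave 2 higher and 2 lower of 20 (10% each), near the 6.86% and 11.7% of all tested genes with a symbol. COR47, a dehydrin induced by cold and drought, had 6121.4, 7640.0 and 8182.4 in stigma, against 1542.1, 2359.2, 1397.3 and 1368.4 in ovary (difference 2.15, SE 0.26), and DI21 averaged 256 ± 106 in stigma and 919 ± 39.3 in ovary (difference −1.84, SE 0.21). SRX, which repairs oxidised peroxiredoxins, averaged 2489.8 ± 134 in stigma and 646 ± 122 in ovary (difference 1.94, SE 0.15). The lower redox genes were MSRB5 (−1.42, SE 0.35), a methionine sulfoxide reductase, and ATMDAR2 (−1.26, SE 0.26). PRA1.B4, a protein of Golgi traffic, averaged 3585 ± 309 in stigma and 947 ± 207 in ovary (difference 1.92, SE 0.22). It was the only called gene of 24 tested in that traffic list.

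Of the 58 lists with at least 5 tested genes, 10 had no called member, where 15.8% of all tested probe sets were called. Besides the citrate cycle, nuclear photosynthesis and gibberellin lists given above, these were 23 genes of splicing and RNA decay, 18 chaperone genes, 13 genes of the exocyst and vesicle fusion, 12 mitochondrial genes, 10 autophagy genes, 10 genes of tetrapyrrole synthesis and 7 of DNA repair. Their medians lay between −0.55 for tetrapyrrole synthesis and 0.29 for the mitochondrial genome. hemf2 of tetrapyrrole synthesis had the largest difference of these 10 lists, at −1.24, and was not called. SEC1B, a vesicle fusion protein, had 0.92 (SE 0.26) and was called with medians set equal (1.06), and the chaperone gene Fes1A, named after its values were seen, had 0.66 and was called without stigma 1 and ovary 1 (1.01).

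**Figure D5:**
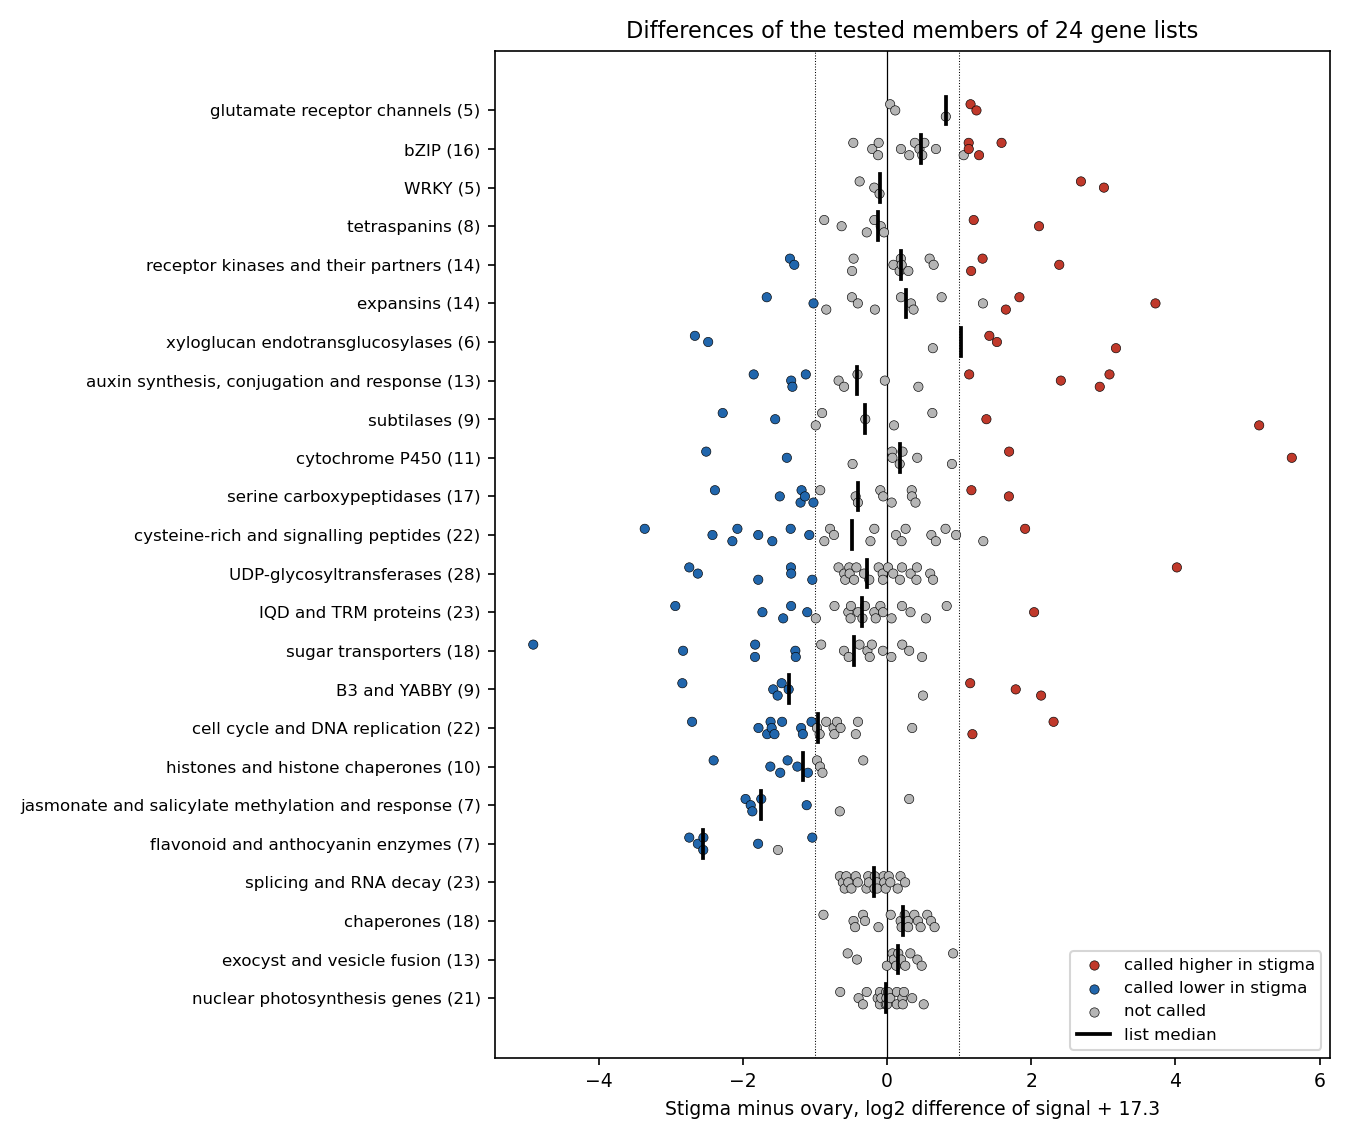
Log2 difference between stigma and ovary (horizontal axis, positive when higher in stigma) of every tested member of 24 gene lists, with the number tested in brackets, members called higher in red, called lower in blue and not called in grey, and the list median as a bar. Division, histone, jasmonate and flavonoid lists lie left of 0 in most members, wall and protease families reach far to both sides, and the bottom 4 lists stay within 2-fold.

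Of the 64 lists, 32 held members called in both directions. Among all tested genes with a symbol 6.86% were called higher and 11.7% lower, so a long list can hold both kinds without a split of its own. Without stigma 1 and ovary 1, 28 of these 32 did, 27 of them through calls made in both fits, and with medians set equal 24 of the 31 with at least 5 tested genes did. The gap of a list was taken between its most extreme called members, and family members outside the list were not searched. Wide gaps were those of the cytochrome P450 list, between CYP79A2 and CYP78A9 (at least 8.13), and the subtilases, between SBT5.4 and SBT1.3 (7.44). That of the UDP-glycosyltransferases, between UGT85A3 and UGT78D1, was 6.77. BCAT4 and MGL, both acting on methionine or its keto acid, lay 5.95 apart. Of 167 named genes that were called, all kept their sign in each alternative that tested them, and 84 were called in each. Within the first scan period 61 of the 167 were not called, and 150 stayed called without stigma 1 and ovary 1.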

How the data were processed

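RNA from stigma (3 arrays), ovary (4) and seedlings (4) was measured on 1-colour Affymetrix ATH1 arrays. The deposited table holds 1 linear intensity per probe set, and its values show a 2% trimmed mean of 500.03 to 500.04 on every array; the software and summary method are not given in the sources used here. Deposited files of run information (other values, such as scan order and chip lot) gave the scan periods. Arrays have no read depth, so their number limits the precision.

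From these values, 64 control probe sets of 22810 were left out. The test took in probe sets above 144.2 on 3 or more arrays, a level that 40 percent of all values lie under. Values were taken as log2(signal + 17.3) and fitted for all 11 arrays with limma 3.58.1 in R 4.3.3 (1 coefficient per tissue, 8 residual degrees of freedom, empirical Bayes), with Benjamini-Hochberg adjustment over 15524 probe sets. A call needed an adjusted p under 0.05 and at least 2-fold. The fit was run on simulated data without effects of scan period, RNA shortening or scaling. No conclusion is drawn from that run. Probe sets were named through the platform annotation: 13513 name 1 gene, 503 several and 8730 are not listed here, and 13436 of the first matched the RefSeq gene table (TAIR10.1), used for names only. Of several probe sets for a gene, the one with the highest mean signal was used.

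Genes named in the text were the 12 with the largest called difference in each direction (without overlap, and called alike without stigma 1 and ovary 1), the markers and, per list of at least 5 tested genes, up to 3 called members in each direction, or the largest difference where none was called, and of each family the pair called in opposite directions with the widest gap. Others are marked as named after their values were seen. The comparison, its members and the lists were chosen with earlier results of these data known. The flavonoid and glucosinolate lists were added after values were seen, and 3 members (CKS, AT1G30260 and STZ) were taken out of lists they did not belong to by annotation. Stigma and ovary arrays share numbers in their titles. Deviations of same-numbered arrays from their tissue mean correlated at 0.216, −0.026 and 0.257 for numbers 1, 2 and 3. Differently numbered arrays correlated at −0.291 to 0.256, so the numbers were not taken to pair the arrays. Stigma 1 correlated at 0.256 with ovary 2, of its scan period, and at −0.291 and −0.211 with ovary 3 and 4. Stigma 3 correlated at 0.25 with ovary 4, of its period, and at −0.199 and −0.275 with ovary 1 and 2. The main fit held no block for scan period. In all, 23 alternatives were fitted: pseudocount, filters, scaling, samples in the fit, scan period, replicate number as a block, the 3′ to 5′ ratio as a covariate, and arrays left out.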

Additional observations from a re-analysis of the deposited data

Results flagged for a closer look

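In 9 of 195 sets of 4 ovary arrays, 1 array lay far from the other 3, and chance flags about 1 in 20 sets. Ovary 1 was that array for 5 genes. It was high for AT2G33850 at 3960.3 (the others 79.2 to 94.6), for AT3G54940 at 103.8 (20.1 to 24.6), for CYP79A2 at 66.2 (4.5 to 8.6) and for AT3G55870 at 62.6 (9.3 to 12.2), all 4 of them higher in stigma. It was low for INO at 515.9 (589.6 to 605.1). Ovary 2 was high for AT5G11420 at 1464.7 (489.4 to 519.7) and for TET3 at 1062.3 (839.5 to 872.0). Ovary 3 was low for chr31 at 891.8 (1396.6 to 1494.5) and high for GRX480 at 233.9 (133.7 to 146.0). All are signals.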

How the results depend on the processing

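Of 2450 called probe sets (973 higher in stigma, 1477 lower), leaving out each array in turn gave 2313 to 2507, with 943 to 1025 higher and 1370 to 1521 lower. Without the 2-fold requirement 5381 were called, 2162 higher and 3219 lower. With arrays set to equal medians 2360 were called, and 53.0% of them were higher in stigma, against 39.7%. With the replicate number as a block, 2514 were called, 974 higher and 1540 lower, and 7 of 167 named calls ended. The scan period as a block gave 2529 calls, and the fits within the first and second period 1723 and 2394. Of the named genes, 83 of 167 lost their call in at least 1 alternative, 21 of them in 5 or more, and 0 changed sign; the larger pseudocount ended 37 calls and the 3′ to 5′ ratio as a covariate 29. The causes were not tested. Within the first period a single stigma array met 2 ovary arrays. That stigma array gives no spread of its own, so the spread was pooled over the other groups of the fit, these ovary arrays included. Signals near background limit the differences of dim transcripts, which are bounds.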
